A study of Homo sapiens with 22 samples.

Results

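The 10 glycolysis genes SLC2A1, HK1, HK2, PFKP, PFKFB3, ALDOA, PGK1, ENO1, LDHA and PDK1 were chosen by name from the 60675 genes of the expression table, and all 10 were measured in every library. HT1080, a human fibrosarcoma line, was sequenced as 22 libraries in 6 groups. Untreated wild-type cells (WT), KDAC6H216A, KDAC6H611A and KDAC8H143A had 4 libraries each, and WT cells given Tubastatin A at 1 µM or PCI-34051 at 5 µM for 2 days had 3 each. The mutants carry, at the endogenous locus, a histidine-to-alanine change in a catalytic site of the lysine deacetylase KDAC6 (gene HDAC6) or KDAC8 (gene HDAC8). Tubastatin A was used as an inhibitor of KDAC6 and PCI-34051 as an inhibitor of KDAC8. The mutant lines came from single colonies after CRISPR/Cas9 editing, and KDAC6H216A was a pool of 3 independently made lines, so an effect of the mutation and a difference between clones cannot be told apart. The KDAC8H143A line also carries an unintended base insertion in an intron.

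Glycolysis splits glucose into pyruvate, and lactate dehydrogenase turns pyruvate into lactate. Tumour cells often run the pathway at a high rate even with oxygen present. Under low oxygen the hypoxia-inducible factors, of which HIF1A encodes a regulated subunit, bind short elements near many of these genes and raise their transcription, while pyruvate dehydrogenase kinases hold pyruvate back from the citrate cycle. In the order of the pathway, SLC2A1 carries glucose across the plasma membrane, HK1 and HK2 phosphorylate it, PFKP makes the committed step and PFKFB3 makes fructose 2,6-bisphosphate, which activates that step. ALDOA, PGK1 and ENO1 act further down, LDHA makes lactate, and PDK1 switches off pyruvate dehydrogenase.

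The 250 bases before each RefSeq gene start (build GRCh38.p14) were searched on both strands for the core letters of the hypoxia response element, ACGTG or GCGTG. The palindrome CACGTG, the E-box bound by MYC among others, holds ACGTG on each strand and so counts as 2 matches. At least 1 match lay in 15 of the 25 windows of these genes, and in 43.2% of all 35116 windows. CACGTG lay in 4 of the 25 windows and in 6.34% of all windows. The stretches shown are from LDHA, PGK1 and ALDOA, which were lower in KDAC8H143A than with PCI-34051, and from HK2 and PFKFB3, which hold the same letters and had other patterns. Capitals mark the matches, and each stretch runs 5′ to 3′ on the strand of the gene.
LDHA, chr11:18394364-18394397, plus strand: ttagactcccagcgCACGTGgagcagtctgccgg
LDHA, chr11:18394462-18394508, plus strand: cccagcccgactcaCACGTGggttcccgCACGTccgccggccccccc
PGK1, chrX:78104023-78104083, plus strand: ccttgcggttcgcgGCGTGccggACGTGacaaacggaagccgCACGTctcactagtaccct
ALDOA, chr16:30065548-30065580, plus strand: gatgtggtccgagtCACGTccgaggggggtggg
HK2, chr2:74834962-74835118, plus strand: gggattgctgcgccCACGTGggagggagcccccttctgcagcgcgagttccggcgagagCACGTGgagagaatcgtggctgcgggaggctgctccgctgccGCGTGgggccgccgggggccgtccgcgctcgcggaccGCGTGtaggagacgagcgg
PFKFB3, chr10:6202810-6202843, plus strand: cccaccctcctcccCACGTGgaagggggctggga

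LDHA held 5 matches before its first start and PGK1 held 3 before its only start. HK2 held 6 before its second start, and SLC2A1 held none in this window. A match is a run of letters and not a binding site.

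Libraries differed in ways that move with the groups. Total counts ran from 5248953 to 12752463 in WT and the KDAC6 mutants, from 11010719 to 17170473 in KDAC8H143A and from 24315766 to 29862665 with the inhibitors. Mitochondrial ribosomal RNA (MT-RNR1 and MT-RNR2) made up 20.8% to 23.9% of the counts in WT, at most 0.0259% in KDAC8H143A and at most 0.00541% with the inhibitors. Of the KDAC6 libraries, KDAC6H216A replicate 1 had 0.195% against 13.1% to 15.1% in the rest of its group, and KDAC6H611A replicates 2 and 4 had 38.0% and 0.173% against 21.0% and 24.5%. Counts of calls in the KDAC6 mutants are given with and without these 3 libraries. HDAC6 lay at 5.86 to 7.46 counts per 1000000 (CPM) in KDAC6H216A and at 9.72 to 17 in WT (edgeR adjusted p = 0.0054), and HDAC8 lay between 10.4 and 15.5 CPM in every library. Point mutants need not change the transcript, so these levels do not check the genotypes. The paper's quantitative PCR found slightly lower KDAC6 in KDAC6H216A and KDAC8H143A, while its RNA-seq found no significant change. In KDAC6H216A lower HDAC6 expression and loss of the catalytic site cannot be told apart. Of 8 mesenchymal markers VIM, FN1, CD44, SPARC, CDH2 and TWIST1 were present in every library, and S100A4 and THY1 reached at most 3.26 CPM. EPCAM, CDH1, KRT19, PTPRC, HBB and ALB reached at most 0.264 CPM, the nerve markers RBFOX3 and GFAP 1.92 CPM and CLDN4 9.47 CPM. CD68, a lysosomal protein of macrophages and other cells, moved with the groups, at 16.7 to 28.8 CPM in KDAC8H143A, 56.5 to 69 in WT and 89.0 to 107.6 with the inhibitors, and its part in the results was not tested.

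Levels are given as CPM with library sizes adjusted by TMM (edgeR) over all 22 libraries. Every gene had at least 167 counts in every library. In bulk RNA, fewer cells expressing a gene and less RNA per cell cannot be told apart. Adjusted p-values are Benjamini-Hochberg values of edgeR's quasi-likelihood test over all genes tested in a comparison, the threshold is 0.01, fold changes are on the log2 scale, and ± after a fold change is its standard error. Per kilobase of canonical transcript, WT cells held most ENO1 (912.3 ± 66.1 CPM per kb, SD, n = 4), then ALDOA (367.9 ± 33.3), LDHA (264.9 ± 17.6), PFKP (90.7 ± 8.09), PGK1 (78.8 ± 7.11), HK1 (53.5 ± 4.02), SLC2A1 (41.3 ± 4.38), HK2 (19.2 ± 0.764), PFKFB3 (11.5 ± 1.01) and PDK1 (3.48 ± 0.128). The 3 most abundant were enzymes that act after PFKP, and the 2 regulatory kinases were the least abundant. The canonical PDK1 transcript is 14072 bases long, which lowers its value per kb. That of PGK1 is 4812 bases long, and before division PGK1 lay above PFKP in WT, at 379.2 against 238.3 CPM. The 14 pseudogenes of these genes in the table held at most 2.1% of the count of their parent in any library.

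**Figure D1:**
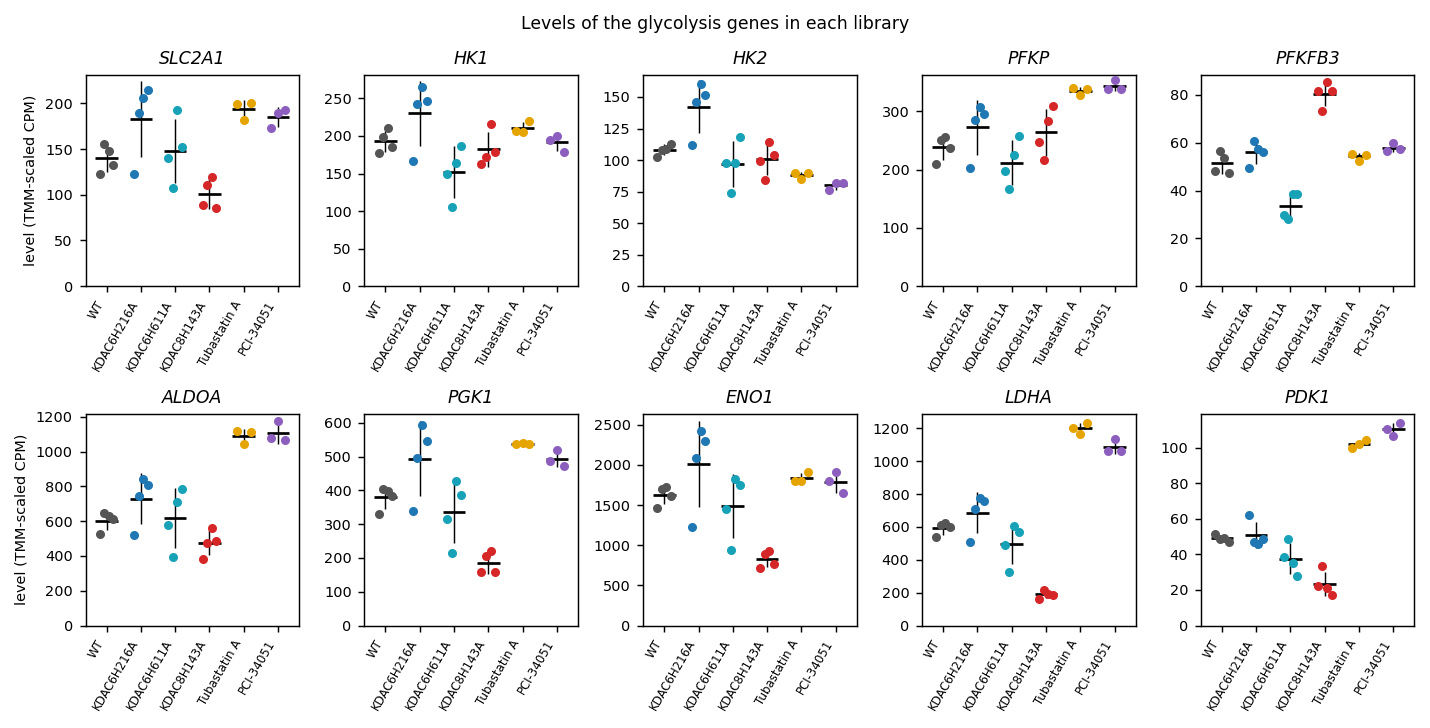
Level of each of the 10 genes in TMM-scaled CPM, with 1 point per library, the group mean and its SD (n = 4, or 3 for the inhibitors). LDHA sits between 161.1 and 216.05 CPM in KDAC8H143A, between 536.3 and 626.2 in WT and between 1060.3 and 1233.4 with the inhibitors, while for HK1 each group overlaps the next in order.

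LDHA and PDK1, which turn pyruvate to lactate and away from the mitochondria, differed most between KDAC8H143A and the inhibitors in these uncorrected levels. Which genes differed most in KDAC8H143A changed with a correction for GC content and length, given below. In WT cells LDHA stood at 536.3, 609.4, 626.2 and 602.8 CPM in replicates 1 to 4. KDAC8H143A held 161.1, 216.05, 191.1 and 188.6 CPM. Tubastatin A gave 1205.5, 1166.0 and 1233.3 CPM and PCI-34051 1062.8, 1135.8 and 1060.3 CPM. These 4 groups did not overlap one another. The KDAC6 mutants lay around WT, at 505.8, 709.1, 776.4 and 758.9 CPM in KDAC6H216A and 490.5, 327.9, 609.1 and 567.7 CPM in KDAC6H611A.

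For PDK1 WT cells held 51.3, 48.8, 49.0 and 46.9 CPM and KDAC8H143A 22, 33.2, 20.9 and 17.4 CPM. With Tubastatin A the values were 99.8, 102.3 and 104.5 CPM and with PCI-34051 110.7, 106.7 and 114.1 CPM. All 6 inhibitor libraries lay above all others, and all 4 of KDAC8H143A below WT. KDAC6H611A (38.5, 48.9, 35.1 and 28.1 CPM) overlapped both WT and KDAC8H143A. In KDAC6H216A the library with little mitochondrial rRNA was the highest, at 62.0 CPM against 46.0 to 48.8 CPM.

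The comparison of KDAC8H143A with WT asks what changes with loss of KDAC8 catalysis. Of the 10 genes 5 were lower and 1 was higher, where 26.9% of all genes tested were called lower and 31.6% higher. LDHA gave −1.60 ± 0.11 (edgeR adjusted p = 5.6e-07), a level 0.33 times that of WT, and PDK1 −1.01 ± 0.17 (0.00023). PGK1, which makes the first ATP of the pathway, gave −0.98 ± 0.12 (3.4e-05), and ENO1, which makes phosphoenolpyruvate, −0.92 ± 0.11 (2.2e-05). SLC2A1 gave −0.42 ± 0.12 (0.0093). PFKFB3 rose, from 48.2, 56.7, 53.7 and 47.2 CPM in WT to 81.8, 73.3, 85.3 and 81.6 CPM, a log2 fold change of 0.69 ± 0.10 (edgeR adjusted p = 7.1e-05). ALDOA (−0.29 ± 0.12, 0.044), HK1 (−0.03 ± 0.11), HK2 (−0.06 ± 0.11) and PFKP (0.20 ± 0.12) did not pass. The median of the 10 genes was −0.36, beside 0.08 over all genes.

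PGK1 lay at 157.9, 205.6, 220.2 and 159.0 CPM in KDAC8H143A and at 329.5, 404.9, 397.9 and 384.6 CPM in WT. ENO1 lay at 716.2, 895.5, 931.0 and 765.6 CPM against 1465.3, 1704.3, 1722.4 and 1607.3 CPM. Neither gene overlapped between the groups. SLC2A1, at 88.7, 110.2, 119.3 and 85.4 CPM against 122.4, 155.3, 148.4 and 133.0 CPM, came close to overlapping. Its call was lost without WT replicate 2, 3 or 4 or KDAC8H143A replicate 1 or 4, with adjusted p up to 0.034, whereas LDHA, PGK1, ENO1, PDK1 and PFKFB3 passed whichever single library was left out. The call of SLC2A1 was also lost with no filter, with at least 10 counts in every library, in the fit of all 6 groups and with library totals as the only scaling. With library totals the median over all genes was 0.36 in place of 0.08, SLC2A1 gave −0.12 (edgeR adjusted p = 0.49), PFKP was called higher (0.47, 0.0038), and LDHA (−1.31), PDK1 (−0.71), PGK1 (−0.68) and ENO1 (−0.63) were still called lower. PGK1 was a reference gene of the study's quantitative PCR.

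The size of these differences moved with base composition. The canonical transcripts of LDHA, PGK1 and PDK1 hold 41.8%, 42.8% and 39.5% GC, and those of the other 7 genes from 50.5% (HK2) to 60.5% (ALDOA). With a correction for GC content and length, 9 of the 10 genes were called lower, where 27.3% of all genes were. LDHA then gave −1.10 ± 0.10, PGK1 −0.64 ± 0.11, PDK1 −0.57 ± 0.10, ENO1 −1.41 ± 0.11, ALDOA −1.12 ± 0.13 and SLC2A1 −0.87 ± 0.12. PFKP turned to −0.54 ± 0.08 (edgeR adjusted p = 0.00012), and PFKFB3 no longer passed (0.07 ± 0.08, 0.51). LDHA, PGK1, PDK1, ENO1 and SLC2A1 were called lower with and without the correction, SLC2A1 with the losses given above.

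**Figure D2:**
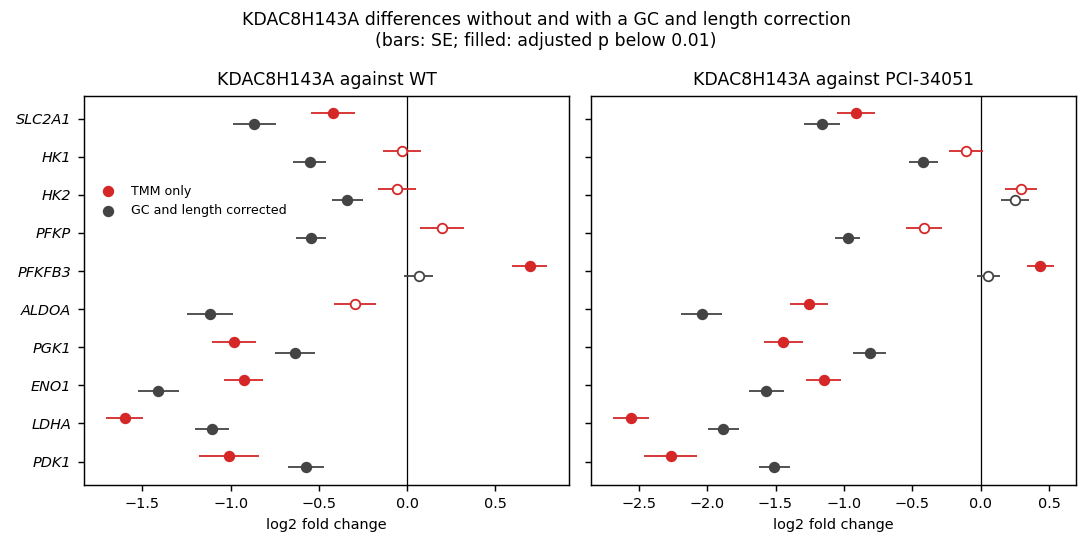
Log2 fold changes of the 10 genes in KDAC8H143A against WT and against PCI-34051, without and with a correction for GC content and transcript length, with SE as bars and filled points where the adjusted p was below 0.01. Against WT LDHA moves from −1.60 to −1.10, ALDOA from −0.29 to −1.12 and PFKFB3 from 0.69 to 0.07.

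Both inhibitors were compared with untreated WT cells. With Tubastatin A 6 of the 10 genes rose and 1 fell, where 29.3% of all genes tested were called higher and 28.6% lower. With PCI-34051 6 rose and 1 fell, where 25.5% were called higher and 25.6% lower. In each comparison SLC2A1, PFKP, ALDOA, PGK1, LDHA and PDK1 were higher and HK2 was lower. The comparisons share the WT libraries and so are not independent. The medians of the 10 genes were 0.36 and 0.29, beside −0.0029 and −0.0071 over all genes.

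With Tubastatin A PDK1 gave 0.95 ± 0.05 (edgeR adjusted p = 2.7e-12), LDHA 0.90 ± 0.04 (1.4e-12) and ALDOA, which cleaves fructose 1,6-bisphosphate, 0.74 ± 0.05 (2.0e-10). PGK1 gave 0.39 ± 0.05, PFKP, the platelet-type phosphofructokinase, 0.37 ± 0.05, and SLC2A1 0.35 ± 0.06. With PCI-34051 PDK1 gave 1.08 ± 0.06 (edgeR adjusted p = 5.6e-11), ALDOA 0.77 ± 0.06 (5.6e-09), LDHA 0.77 ± 0.05 (1.4e-09), PFKP 0.43 ± 0.06, SLC2A1 0.30 ± 0.07 and PGK1 0.28 ± 0.06. PGK1 with PCI-34051 did not pass with the GC and length correction (0.18 ± 0.06, edgeR adjusted p = 0.023).

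ALDOA stood at 1115.5, 1044.3 and 1111.3 CPM with Tubastatin A and 1078.7, 1177.1 and 1063.8 CPM with PCI-34051, against 524.1, 645.8, 631.6 and 611.8 CPM in WT. PGK1 stood at 537.2, 540.4 and 538.2 CPM and 486.1, 518.6 and 472.4 CPM, and PFKP between 327.3 and 353.6 CPM against 208.9 to 256.1 CPM in WT. In none of these genes did an inhibitor library overlap WT.

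HK2, the inducible hexokinase, went the other way, at 89.5, 84.7 and 89.7 CPM with Tubastatin A and 76.0, 81.5 and 82.0 CPM with PCI-34051 against 102.4, 108.3, 109.0 and 112.8 CPM in WT. The log2 fold changes were −0.41 ± 0.05 (edgeR adjusted p = 3.0e-07) and −0.54 ± 0.05 (8.4e-08), again without overlap. With library totals as the only scaling, the median over all genes was 0.35 with Tubastatin A and 0.38 with PCI-34051, and HK2 did not pass (−0.06 and −0.15), so HK2 was lower relative to the median gene. HK1, found in most tissues, gave 0.01 ± 0.05 and −0.11 ± 0.06, ENO1 0.06 ± 0.04 and 0.04 ± 0.06, and PFKFB3 −0.04 ± 0.05 and 0.07 ± 0.06, none past the threshold. With that other scaling these 3 were called higher with both compounds, at 0.28 to 0.45.

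**Figure D3:**
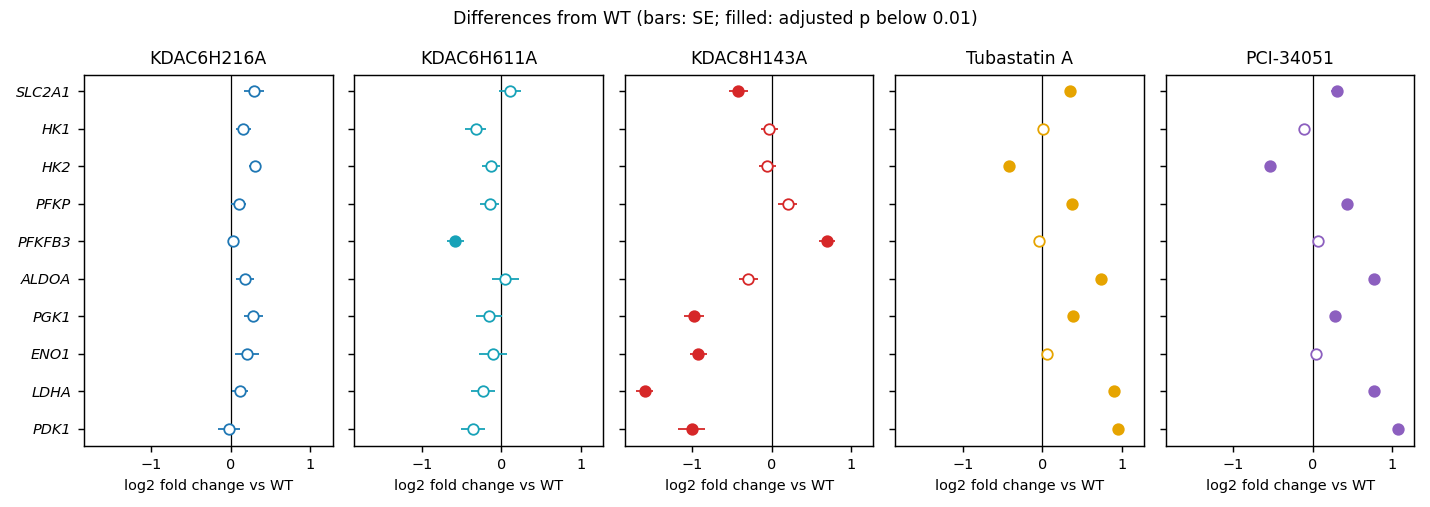
Log2 fold changes of the 10 genes against WT in each mutant and treatment, with SE as bars and filled points where the adjusted p was below 0.01. LDHA and PDK1 lie at −1.60 and −1.01 in KDAC8H143A and between 0.77 and 1.08 with the inhibitors, and no point is filled in KDAC6H216A.

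Without the mitochondrial rRNA and small RNA genes in the fit, 6 genes were called in KDAC8H143A and 7 with each inhibitor, as with them. Of all genes, those fits called 57.7% for the mutant, 59.0% for Tubastatin A and 52.3% for PCI-34051. Removing these RNA genes from the fit leaves the differences in depth between the libraries in place. The KDAC6 libraries with the least mitochondrial rRNA, KDAC6H216A replicate 1 (0.195%) and KDAC6H611A replicate 4 (0.173%), still had more of it than KDAC8H143A or the inhibitors. They held 505.8 and 567.7 CPM of LDHA, 338.0 and 385.3 CPM of PGK1 and 1230.7 and 1746.1 CPM of ENO1, above the range of KDAC8H143A in all 3 genes and below that of the inhibitors in LDHA and PGK1. For PDK1 KDAC6H611A replicate 4, at 28.1 CPM, lay within the range of KDAC8H143A, as did KDAC6H216A replicate 1 for ALDOA, at 519.7 CPM. For ENO1 KDAC6H611A replicate 4 lay within the range of PCI-34051. These libraries also differ from those groups in genotype or treatment and in depth. Depth and the mitochondrial rRNA share moved with KDAC8H143A and the inhibitors, and their part in the differences from WT was not tested. When all 6 groups shared a single fit, LDHA, ALDOA and PDK1 passed with Tubastatin A, and those and PFKP with PCI-34051. In that fit 24.9% and 23.5% of all genes were called.

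PCI-34051 was used as an inhibitor of KDAC8, the deacetylase mutated in KDAC8H143A, and both groups have little mitochondrial rRNA. The paper proposes that PCI-34051 and Tubastatin A bind a shared target besides KDAC6 and KDAC8. The mutant is a lasting line, the inhibitor was given for 2 days, and its libraries had higher total counts. These differences cannot be told apart. Compared directly, 6 of the 10 genes were lower in the mutant and 1 was higher, where 30.3% of all genes tested were called lower and 27.8% higher. LDHA differed by −2.56 ± 0.13 (edgeR adjusted p = 3.6e-07), 0.17 times the level with the inhibitor, and PDK1 by −2.27 ± 0.19 (6.0e-06). PGK1 differed by −1.44 ± 0.14, ALDOA by −1.26 ± 0.14, ENO1 by −1.15 ± 0.13, SLC2A1 by −0.91 ± 0.14, and PFKFB3 by 0.44 ± 0.10 (edgeR adjusted p = 0.0029). PFKP (−0.42 ± 0.13, 0.016), HK2 (0.29 ± 0.12, 0.047) and HK1 (−0.11 ± 0.12, 0.44) did not pass. With the GC and length correction 8 genes were called lower, where 26.8% of all genes were, LDHA at −1.88 ± 0.11 and PDK1 at −1.51 ± 0.11, and PFKFB3 was not called (0.05 ± 0.08). PFKFB3 also lost its call without any 1 of the PCI-34051 libraries, with adjusted p up to 0.02. Under the other scalings, filters and fits, the correction included, ALDOA ran from −2.04 to −1.05 and ENO1 from −1.57 to −0.94. LDHA ran from −2.64 to −1.88 and PDK1 from −2.35 to −1.46.

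PCI-34051 at 5 µM and Tubastatin A at 1 µM were set side by side, although compound and dose cannot be told apart. Of the 10 genes edgeR called 0, where 5.65% of all genes tested were called. DESeq2 called 1, LDHA, where it called 7.66% of all genes. With edgeR 6 of the 10 had an unadjusted p below 0.05, a share not counted over all genes. LDHA gave −0.13 ± 0.04 with PCI-34051 relative to Tubastatin A (edgeR adjusted p = 0.026, 95% interval −0.21 to −0.05), and PDK1 0.13 ± 0.05 (0.078, 95% interval 0.03 to 0.23). In both genes the libraries of the compounds did not overlap. The intervals of all 10 genes lay between −0.22 and 0.23.

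The KDAC6 mutants were compared with WT to ask whether these genes change where a KDAC6 catalytic site is mutated. The lower HDAC6 level of KDAC6H216A cannot be told apart from the mutation itself. In KDAC6H216A edgeR called 0 of the 10, where 0.214% of all genes tested were called higher and 0.621% lower. DESeq2 called 1, HK2, where it called 2.53% of all genes. With edgeR 3 of the 10 had an unadjusted p below 0.05, a share not counted over all genes. HK2 gave 0.30 ± 0.07 (edgeR adjusted p = 0.074, 95% interval 0.14 to 0.47), with 112.2, 145.6, 160.2 and 151.3 CPM against 102.4 to 112.8 CPM in WT. SLC2A1 gave 0.29 ± 0.12 and PGK1 0.28 ± 0.12, and the other 7 genes lay between −0.02 and 0.20.

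KDAC6H216A replicate 1 was the lowest library of its group in 9 of the 10 genes and the highest in PDK1. Without it 7 of the 10 genes were called higher, where 12.2% of all genes were. SLC2A1 then gave 0.40 ± 0.06 (edgeR adjusted p = 7.7e-05), PGK1 0.38 ± 0.06 (6.1e-05), HK2 0.36 ± 0.05 (4.0e-05) and ENO1 0.34 ± 0.05 (7.5e-05). ALDOA gave 0.27 ± 0.06, HK1 0.24 ± 0.05 and LDHA 0.20 ± 0.05. ENO1 stood at 1230.7 CPM in replicate 1, below every WT library, and at 2083.1, 2418.9 and 2296.9 CPM in replicates 2 to 4, above every WT library.

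In KDAC6H611A 1 of the 10 genes was called, PFKFB3, which was lower, where 6.24% of all genes tested were called lower and 6.08% higher. Its values were 29.8, 28.1, 38.6 and 38.4 CPM, below every WT library, and its log2 fold change was −0.58 ± 0.11 (edgeR adjusted p = 0.0022). It missed the threshold without WT replicate 2 or 3 or KDAC6H611A replicate 1, with adjusted p up to 0.013, and with library totals as the only scaling (−0.55, 0.11). The other 9 genes lay between −0.36 (PDK1) and 0.11 (SLC2A1). Replicate 2, with the highest mitochondrial rRNA share, was the lowest of its group in 9 of the 10 genes and the highest in PDK1. Without replicates 2 and 4 of KDAC6H611A 2 genes were called lower, where 9.02% of all genes were, PFKFB3 at −0.57 ± 0.10 (edgeR adjusted p = 0.00059) and PDK1 at −0.41 ± 0.09 (0.0033).

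KDAC6 has a pair of catalytic domains, and KDAC6H216A and KDAC6H611A each change one of them. In the direct comparison PFKFB3 was lower in KDAC6H611A, at −0.64 ± 0.10 (edgeR adjusted p = 0.0022), the only gene called of the 10, where 5.31% of all genes tested were called lower. It missed the threshold without KDAC6H216A replicate 2 or KDAC6H611A replicate 1, with adjusted p up to 0.012. HK1 gave −0.51 ± 0.16 (0.046) and HK2 −0.46 ± 0.13 (0.028). Without the 3 libraries that stand apart 6 genes were called lower, where 13.6% of all genes were, namely PFKFB3 (−0.64 ± 0.10), HK1 (−0.56 ± 0.08), HK2 (−0.53 ± 0.08), PGK1 (−0.44 ± 0.11), PFKP (−0.37 ± 0.08) and LDHA (−0.33 ± 0.09).

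The order of the 6 group means differed from gene to gene. An inhibitor was highest for SLC2A1, PFKP, ALDOA, PGK1, LDHA and PDK1, KDAC6H216A for HK1, HK2 and ENO1, and KDAC8H143A for PFKFB3. KDAC8H143A was lowest for SLC2A1, ALDOA, PGK1, ENO1, LDHA and PDK1. Of the 5 pairs of neighbouring groups, all 5 overlapped in HK1, 2 in LDHA, 3 in PFKFB3 and PDK1, and 4 in the other 6 genes. Such overlaps were not counted over all genes, so whether LDHA or PDK1 separated the groups more than most genes was not tested. Orders and overlaps are those of the TMM-scaled levels, and in some of these genes the order changed with library totals as the only scaling, as given below.

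Isoenzyme shares do not depend on scaling between libraries and are given per kilobase. The transcripts of a family may differ in GC content, and the shares were not corrected for it. LDHA made up 42.3 ± 0.949% (SD, n = 4) of LDHA, LDHB and LDHC in WT, 27.4 ± 1.34% in KDAC8H143A, 63.1 ± 0.206% under Tubastatin A and 63.0 ± 1.04% under PCI-34051 (n = 3 each). On raw counts these shares were 55.7%, 39.4%, 74.6% and 74.5% in the same order. LDHB, which encodes the heart-type subunit, was itself lower in KDAC8H143A (−0.65 ± 0.10) and with both inhibitors (−0.32 ± 0.05 and −0.44 ± 0.06). In the KDAC6 mutants the LDHA share was 44.6 ± 3.76% and 43.7 ± 1.67%, overlapping WT, and 42.7 ± 1.2% (n = 3) and 42.9 ± 0.065% (n = 2) without the 3 libraries that stand apart.

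PDK1 made up 52.6 ± 5.96% of PDK1 to PDK4 in WT and 29.1 ± 6.05% in KDAC8H143A, whose highest library (37.4%) lay below the lowest of WT (48.4%). With Tubastatin A its share was 49.3 ± 4.54% and with PCI-34051 56.4 ± 0.464%, both overlapping WT. On raw counts, without division by its long transcript, PDK1 held 87.0% in WT and 67.4% in KDAC8H143A. HK2 held 26.4 ± 1.39% of the hexokinases in WT and 21.0 ± 0.528% and 21.0 ± 1.42% with the inhibitors, without overlap. PFKP held 60.4 ± 0.65% of the phosphofructokinases in WT, 56.7 ± 2.14% in KDAC8H143A, and 65.3 ± 0.475% and 64.6 ± 1.01% under the inhibitors in the same order. ENO1 held 98.0 ± 0.25% of the enolases in WT and 92.9 ± 1.61% in KDAC8H143A, where ENO3, the muscle enolase, stood at 17.1 ± 4.9 CPM against 2.82 ± 0.0877 CPM in WT. ALDOA held at least 95.3% of the aldolases in every library.

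**Figure D4:**
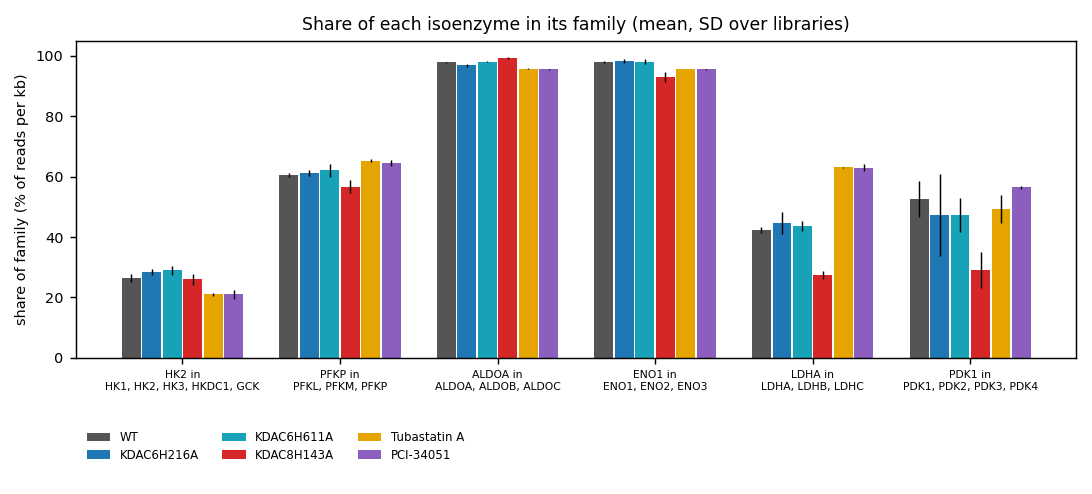
Share of each isoenzyme in its family, in percent of reads per kilobase, for each group with the SD over libraries. The LDHA share is 27.4% in KDAC8H143A, 42.3% in WT and 63.1% and 63.0% with the inhibitors, while ALDOA and ENO1 hold over 90% of their families in every group.

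The other genes around the pathway were placed in 7 lists. In KDAC6H216A 0 of 62 tested genes of these lists were called by edgeR and 0 by DESeq2, where 0.834% and 2.53% of all genes were. With edgeR 15 had an unadjusted p below 0.05, a share not counted over all genes. The count of calls rested on replicate 1. Without it 24 of 62 were called higher and 0 lower, where 12.2% of all genes were called higher and 13.8% lower. Of the other glycolytic isoenzymes 6 of 11 were then higher, and of the hypoxia-inducible factor list 5 of 14.

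In KDAC6H611A SLC2A3, a glucose carrier (0.63 ± 0.12), PFKFB4, which makes the same activator as PFKFB3 (1.01 ± 0.14), and TXNIP, an inhibitor of glucose uptake (1.43 ± 0.14), were higher. RPE of the pentose phosphate pathway (−0.57 ± 0.10) and PRKAA1, a catalytic subunit of the AMP-activated kinase (−0.42 ± 0.09), were lower. Of 13 genes of the hypoxia-inducible factor list 3 were higher and 1 lower, where 6.08% and 6.24% of all genes were, with VEGFA at 0.79 ± 0.12 and EPAS1 at −0.71 ± 0.14. Without replicates 2 and 4 of KDAC6H611A each of these 7 genes was still called, SLC2A3 at 0.79, PFKFB4 at 0.87, TXNIP at 1.59, RPE at −0.48, PRKAA1 at −0.35, VEGFA at 0.65 and EPAS1 at −0.52. Over the 7 lists 12 of 62 genes were then higher and 6 lower, where 9.36% and 9.02% of all genes were. With library totals as the only scaling PFKFB4 and TXNIP were the genes still called of the 7 lists, and 3.73% of all genes were called higher and 2.47% lower.

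In KDAC8H143A the list counts are read beside 31.6% of all genes called higher and 26.9% lower, beside 40.3% and 15.5% with library totals as the only scaling, and beside 21.5% and 27.3% with the GC and length correction. Of 12 other glycolytic isoenzymes 5 were lower and 2 higher (median −0.23). With library totals 3 were lower and 4 higher (median 0.06), and with the GC and length correction 7 and 1 (median −0.59). ALDOC (−1.83 ± 0.23), PGAM1, the mutase between PGK1 and ENO1 (−1.35 ± 0.12), and TPI1, which interconverts the triose phosphates (−0.92 ± 0.12), fell and were called lower under both alternatives. GAPDH (−0.69 ± 0.12) and LDHB fell but were not called with library totals (−0.40 and −0.36), nor was LDHB with the correction. ENO3 (2.65 ± 0.24) rose under each, and ENO2 (0.54 ± 0.10) was not called with the correction (0.07). PKM, the pyruvate kinase, did not pass (−0.26 ± 0.12) but was called lower with the correction (−0.92).

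Of 11 genes for the entry of pyruvate into mitochondria 7 were lower and 1 higher (median −0.74), and with the GC and length correction 5 and 1 (median −0.23). MPC1 (−2.62 ± 0.39) and MPC2 (−1.46 ± 0.21), the subunits of the pyruvate carrier, were lowest and were called with the correction too (−2.14 and −1.05). MPC1 lay near the floor in KDAC8H143A, at 0.245 to 1.84 CPM against 6.24 to 8.27 CPM in WT. PDK2 (1.16 ± 0.20) was higher but not called with the correction (0.33). Of the carriers 3 of 7 were lower, 6 with the correction, and 2 lower and 2 higher with library totals, with SLC2A12 (−2.18 ± 0.37) and SLC2A3 (−1.13 ± 0.17) lower each time. SLC2A12 lay at only 0.408 to 1.42 CPM in KDAC8H143A and 3.62 to 5.49 CPM in WT. In the pentose phosphate pathway 2 of 7 genes were lower, RPE (−0.80) and PGD (−0.39), but with library totals 2 were higher and 0 lower, and with the correction 5 were lower and RPE was at 0.07. TIGAR, a fructose 2,6-bisphosphatase, was lower (−0.72) and lost its call with library totals (−0.42) and with the correction (−0.29).

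With the inhibitors the list counts are read beside 29.3% of all genes called higher and 28.6% lower for Tubastatin A and 25.5% and 25.6% for PCI-34051. With library totals as the only scaling these shares were 51.9% and 12.1%, and 51.4% and 9.62%. With the GC and length correction they were 26.6% and 30%, and 23.5% and 27.4%. With Tubastatin A 7 of 11 other isoenzymes were higher and 1 lower, and with PCI-34051 5 were higher and 2 lower. With library totals 9 and 10 were higher and 0 lower. ALDOC (1.71 ± 0.08 and 1.87 ± 0.08) and ENO2, the neuronal enolase (1.34 ± 0.05 and 1.33 ± 0.07), rose most. LDHB fell with both, but was not called with library totals (0.03 and −0.05).

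Of 8 carriers 4 rose with each compound, SLC2A12 most (2.23 and 2.51), followed by the lactate exporter SLC16A3 (0.47 and 0.66). In the pentose phosphate pathway 4 of 7 genes were higher and 1 lower with Tubastatin A, and 3 were higher with PCI-34051, and with library totals all 7 were higher with each. Of 11 pyruvate entry genes 4 rose with each, PDK3 (1.32 and 0.85) and PDK2 (0.54 and 0.71) most, while 2 and 3 fell, MPC1 most (−1.07 and −1.19). With library totals 8 of them were higher with each compound and 2 lower. PFKFB4 (0.61 and 0.96) and TIGAR (0.53 and 0.38) rose as well, TIGAR with PCI-34051 not being called with the GC and length correction (0.23).

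In the hypoxia-inducible factor list 12 of 15 genes were higher and 1 lower with Tubastatin A (median 0.95), and 12 of 14 higher and 1 lower with PCI-34051 (median 0.97). With the GC and length correction 12 and 11 were higher, and with library totals 14 and 13. CA9, a carbonic anhydrase widely used as a hypoxia marker, stood at 28.9 ± 1.38 and 25.5 ± 0.772 CPM against 1.19 ± 0.653 CPM in WT. HIF1A itself stood at 676.6, 656.1 and 678.0 CPM with Tubastatin A and 763.5, 803.1 and 712.8 CPM with PCI-34051, against 348.3, 384.2, 405.1 and 363.4 CPM in WT, without overlap. P4HA1, a collagen prolyl hydroxylase, stood at 90.3 ± 2.52 and 97.8 ± 6.87 CPM against 27.4 ± 2.58 CPM, and EGLN2, an oxygen-sensing prolyl hydroxylase, was lower (−0.79 and −0.67).

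In KDAC8H143A 3 of 13 genes of that list were higher and 5 lower, beside the 31.6% and 26.9% of all genes. With the GC and length correction 1 was higher and 4 lower, and with library totals 4 and 4. HIF1A lay at 152.8, 190.8, 141.4 and 173.1 CPM, below every WT library (−1.14 ± 0.11, edgeR adjusted p = 5.6e-06), and gave −0.46 with the correction, still called. P4HA1 lay at 8.48 ± 1.58 CPM (−1.63 ± 0.15, and −0.98 with the correction, still called). EGLN2 (0.81) and VHL (0.54), which act in the oxygen-dependent breakdown of HIF1A protein, were higher, and with the correction EGLN2 gave −0.27 and was not called.

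Of 9 regulators of glycolytic genes 3 were higher and 4 lower in KDAC8H143A, beside 31.6% and 26.9% of all genes, so the higher ones were at about that share. With the GC and length correction 4 were higher and 3 lower, and with library totals 3 and 2. MYC stood at 101.0, 79.5, 108.6 and 129.2 CPM against 50.5, 59.4, 54.4 and 56.2 CPM in WT (0.97 ± 0.14), MLXIP was at 1.20 and MLXIPL at −1.57. With each inhibitor 5 regulators were higher and 1 lower. With the GC and length correction 3 were higher with Tubastatin A and 2 with PCI-34051, and with library totals 8 and 7. TXNIP (3.76 and 4.03) rose and MLXIPL (−2.53 and −1.87) fell under each of these. MYC did not pass (−0.07 and −0.08), but was called higher with library totals (0.28 and 0.30).

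**Figure D5:**
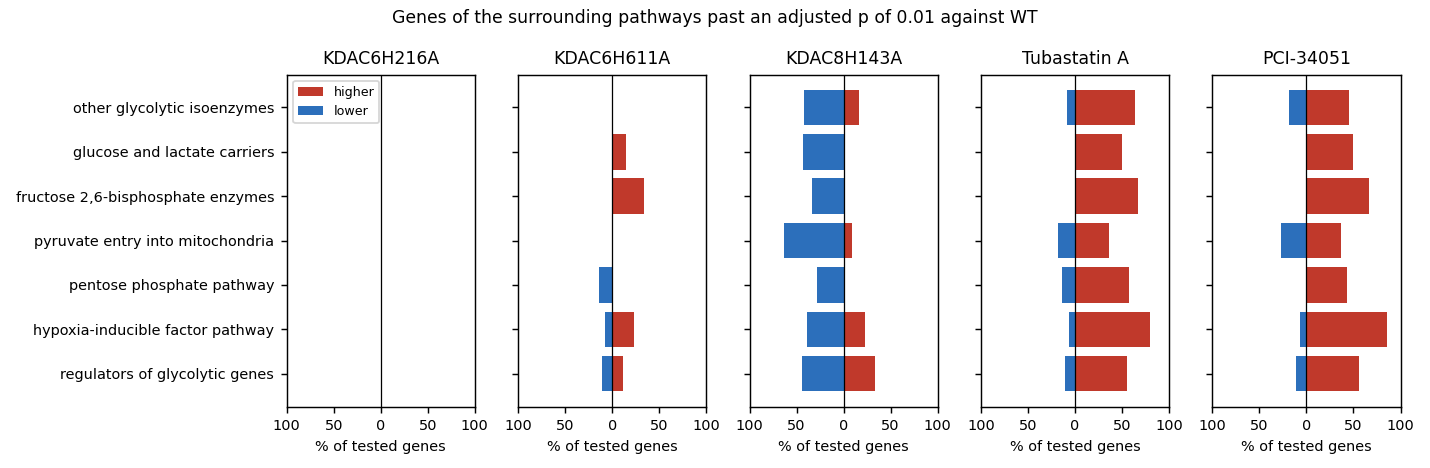
Percent of the tested genes of 7 lists around glycolysis that were higher (to the right) or lower (to the left) than WT at an adjusted p below 0.01, in each mutant and treatment. The hypoxia-inducible factor list has 12 genes higher and 1 lower with each inhibitor, 3 higher and 5 lower in KDAC8H143A, and no call in KDAC6H216A.

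Genes with the pattern most like each member were found by Pearson's r of log2 CPM over the 22 libraries, among 15637 genes with a mean of at least 1 CPM. The libraries share groups and depth, so r is a description. CCT4, a chaperonin subunit, followed ENO1 at r = 0.995, EFEMP1 followed LDHA at 0.993 and CAP1 followed PGK1 at 0.988. PGAM1, which acts right after PGK1 in the pathway, was next after HSP90B1 for PGK1, at 0.984. The nearest were CLSTN1 for ALDOA (0.984), TXNDC5 for SLC2A1 (0.976), SLC25A36 for PDK1 (0.975), NUDCD3 for PFKFB3 (0.972), NCAPD2 for HK1 (0.968), RPL13 for PFKP (0.955) and RCC1 for HK2 (0.949). None of the 10 genes was among the 3 nearest of another.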

How the data were processed

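Total RNA of HT1080 cells was depleted of rRNA and sequenced as paired ends. Per the labels and methods, the authors trimmed reads with Trimmomatic 0.39, aligned them with Bowtie2 2.4.5 to GRCh38 and deposited RSEM 1.3.3 expected counts per gene. The annotation release is not given in the sources used here. Expected counts were rounded and tested with edgeR 4.0.16 (TMM, filterByExpr, glmQLFit, glmQLFTest) in R 4.3.3, each comparison on its 2 groups and over all genes, with p-values adjusted by Benjamini-Hochberg at 0.01. The standard error is the size of the log2 fold change over the square root of F. Transcript lengths and GC content are from GENCODE release 44, promoters from RefSeq.

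The 10 genes, the 7 lists and the naming rule were chosen with earlier results of these data known. The rule named all 10 genes, at most 2 genes per direction, list and comparison with WT, and the 3 nearest patterns. TPI1, GAPDH, LDHB and PKM in KDAC8H143A, and HIF1A with the inhibitors and P4HA1 with Tubastatin A, were named after their values were seen. The study's methods call the libraries of a group biological replicates, 4 for WT and each mutant and 3 for each inhibitor. Alternatives used DESeq2 1.42.0, other scalings, filters and fits, a GC and length correction (mgcv 1.9.3) and each library left out. Leaving out the libraries that stand apart was chosen after seeing the data. The scripts were tested on simulated data. Python 3.11.15 was used for summaries. Some genes of the lists are counted in them but not reported here by name.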

Additional observations from a re-analysis of the deposited data

Results flagged for a closer look

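Effects against the shared WT libraries were compared by direct contrasts between the groups, with edgeR and adjustment over all genes. KDAC8H143A and PCI-34051 differed in 7 of the 10 genes, where 58.2% of all genes tested were called. The log2 differences (mutant minus inhibitor) were −2.56 for LDHA, −2.27 for PDK1, −1.44 for PGK1, −1.26 for ALDOA, −1.15 for ENO1, −0.91 for SLC2A1 and 0.44 for PFKFB3. PFKFB3 was not called with the GC and length correction. The KDAC6 mutants differed in PFKFB3, at −0.64 in KDAC6H611A relative to KDAC6H216A, where 9.93% of all genes were called. The 10 genes in WT and each mutant gave 40 groups of 4 libraries, which are not independent. In none did a single library lie far enough from the rest to pass Dixon's test at the 95% level, by which chance marks about 1 in 20 groups. With 4 libraries the test can miss a library that stands apart. Without KDAC6H216A replicate 1 the calls among the 10 genes went from 0 to 7, and those among all genes from 0.834% to 26.0%.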

How the results depend on the processing

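The number of the 10 genes called stayed within 1.5 times its value in each comparison under each alternative, apart from the following. KDAC6H216A against WT went from 0 to 1 with DESeq2 and with library totals as the only scaling. The share of all genes called went from 0.834% to 2.53% and 3.06%. With 1 library left out the count was between 0 and 7, and the share between 0.189% and 26.0%. KDAC6H611A against WT went from 1 to 0 with library totals and to 2 without its libraries that stand apart. The share of all genes called went from 12.3% to 6.2% and 18.4%. With 1 library left out the count was between 0 and 2, and the share between 7.48% and 19.4%. In a single fit of all 6 groups Tubastatin A went from 7 to 3 and PCI-34051 from 7 to 4. The share of all genes called went from 57.9% to 24.9% and from 51.1% to 23.5%. KDAC6H611A against KDAC6H216A went from 1 to 3 at an adjusted p below 0.05 and in the fit of all 6 groups, and to 2 with DESeq2. The share of all genes called went from 9.93% to 20.8%, 18.3% and 16.7% in that order. With library totals 0 were called, beside 5.22% of all genes, and without the libraries that stand apart 6, beside 25.9%. With 1 library left out the count was between 0 and 2, and the share between 5.1% and 19.5%. PCI-34051 against Tubastatin A went from 0 to 1 at an adjusted p below 0.05, with DESeq2 and with no filter. The share of all genes called went from 5.65% to 13.4%, 7.66% and 5.69%. With 1 library left out the count was between 0 and 1, and the share between 2.15% and 6.13%. The order of the 6 group means was the same with library totals as with TMM in 4 of the 10 genes. The cause of these shifts was not tested.

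Log2 fold changes that changed sign were those of genes not called in the comparison itself. PDK1 in KDAC6H216A became 0.16 with library totals, 0.0037 with no filter, 0.05 in the fit of all 6 groups and with the GC and length correction, and 0.04 with that correction and the block. In KDAC6H611A SLC2A1 became −0.0031 and ALDOA −0.13 with the correction, −0.02 and −0.16 with the block added, and ENO1 0.02 without the libraries that stand apart. In KDAC8H143A HK1 became 0.26 and HK2 0.23 with library totals, 0.03 and 0.01 with at least 10 counts in every library, and PFKP −0.54 with the correction, with or without the block. With Tubastatin A HK1 became −0.02 with upper quartile scaling and −0.01 with the block, and PFKFB3 0.31 with library totals, 0.05 with no filter and 0.07 in the fit of all 6 groups. With PCI-34051 HK1 became 0.28 with library totals and PFKFB3 −0.01 with the correction and the block. Between the inhibitors ALDOA became −0.01 with the correction, with or without the block, and ENO1 0.01 with library totals. Against PCI-34051 HK1 in KDAC8H143A became 0.1 with upper quartile scaling.

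With 1 library left out, values in KDAC6H216A ran from −0.01 to 0.07 for PFKFB3 and −0.18 to 0.05 for PDK1. In KDAC6H611A they ran from −0.03 to 0.2 for SLC2A1, −0.09 to 0.19 for ALDOA and −0.2 to 0.04 for ENO1. HK1 ran from −0.16 to 0.02 in KDAC8H143A and −0.01 to 0.06 with Tubastatin A, PFKFB3 from −0.08 to 0.01 with Tubastatin A and ENO1 from −0.0036 to 0.09 with PCI-34051. Between the inhibitors ALDOA ran from −0.0048 to 0.05 and ENO1 from −0.07 to 0.02. Of 590 values with 1 library left out 544 kept direction and side of the threshold, and of 900 values under other alternatives 811 did.

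Replicate numbers are shared between groups, but deviations of libraries with the same number correlated at −0.313 to 0.475, and in no comparison was every pair above 0.1. With the replicate number as a block KDAC6H611A against KDAC6H216A went from 1 to 0 (PFKFB3 −0.65, edgeR adjusted p = 0.0108), and in KDAC8H143A against PCI-34051 PFKFB3 (0.42, 0.0113) lost its call and PFKP (−0.51, 0.0065) gained one. Of all genes 6.22% were then called in the former comparison and 56.0% in the latter. In none of the 8 comparisons did every library correlate best with its own number. The lowest count of the 10 genes in a library was 167.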
